A study of Homo sapiens with 8 samples.

Results

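The nuclear genes of the respiratory chain are described here across 8 RNA libraries of K562 cells, a human erythroleukaemia line. Members were chosen by their symbols in the deposited transcript lists: the NDUFA, NDUFB, NDUFC, NDUFS and NDUFV series, SDHA to SDHD, symbols that begin with UQCR or ATP5, the COX4 to COX8 series, and CYC1. This gave 83 genes of 23594, of which 76 encode a subunit or an isoform of one. The other 7 matched by name alone: the supercomplex factor COX7A2L, the assembly factor ATP5SL, the gene copies ATP5L2 and UQCRHL, the pseudogenes ATP5EP2 and UQCRBP1, and the antisense gene NDUFB2-AS1. Every library came from cells in which doxycycline switches on a transgene for SF3B1, a splicing factor, either with the K700E substitution or in wild-type (WT) form. The 4 groups were K700E_induced, K700E_uninduced, WT_induced and WT_uninduced, with 2 libraries each; induced cells had received 1 ug/ml doxycycline for 48 h. Within a line, induction of the transgene and doxycycline always went together, so a response to the transgene and a response to the drug cannot be told apart. Whether each line was 1 clone is not given in the sources used here, so a difference between the lines and a difference between SF3B1 alleles cannot be told apart. Nothing says that the libraries of a group came from separate cultures, so p-values reflect no more than how far these libraries differ, and that spread may be technical.

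The respiratory chain sits in the inner mitochondrial membrane. Complexes I (NADH dehydrogenase) and II (succinate dehydrogenase) pass electrons to ubiquinone, complex III passes them on to cytochrome c, and complex IV (cytochrome c oxidase) hands them to oxygen. Complexes I, III and IV pump protons, and complex V (ATP synthase) lets them flow back to make ATP. Most subunits are nuclear genes, while a few core subunits of complexes I, III, IV and V are encoded in mitochondrial DNA; of those 13 mRNAs, 0 were found in the lists and they are not analysed here.

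Values are FPKM (fragments normalised to transcript length and to the mapped fragments of the library), summed over the transcripts of a gene and scaled between libraries by factors of 0.99 to 1.04. Coverage per FPKM, the measure of depth these lists hold, ranged from 3.29 to 4.77 over the libraries; the 2 WT_induced libraries had both the highest and the lowest value. SF3B1 itself had 28.7 and 39.0 FPKM in K700E_induced and 33.3 and 30.7 FPKM in K700E_uninduced. It had 36.5 and 26.9 FPKM in WT_induced and 37.7 and 31.3 FPKM in WT_uninduced. Total SF3B1 RNA thus overlapped between induced and uninduced libraries of both lines, and transgene and endogenous RNA were not separated. All 10 K562 and erythroid markers checked had a mean above 1 FPKM, while in the liver and muscle list ALB and MYH7 were at 0 in every library and ACTC1 did not exceed 0.493 FPKM. Of 6 lymphoid markers MS4A1 and CD2 were at 0 throughout, but CD3D averaged 22.6 FPKM. Of 6 myeloid markers CD14 and MPO were at 0 throughout, but LYZ and CD68 averaged 17.0 and 18.4 FPKM. Among 6 stromal and epithelial markers KRT8, KRT18 and EPCAM averaged 359, 288 and 21.3 FPKM.

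Most subunit genes were strongly expressed. Of 76, 70 had a mean of 1 FPKM or more and were tested; 33 of these averaged over 100 FPKM, 36 between 10 and 100, and 1 (COX6B2) under 10. Their median was 96.1 FPKM, against 11.6 FPKM for all 11375 genes tested. Within a complex, whose subunits are assembled in fixed numbers, mean levels differed widely among the tested genes that carried a symbol. The range was 23.9-fold between NDUFA13 and NDUFA10 in complex I, 3.84-fold in complex II and 8.99-fold in complex III. It was 589.9-fold between COX8A and the scarce COX6B2 in complex IV, and 8.22-fold in complex V. Part of this order ran with transcript length, since across the 70 genes mean FPKM and the length of the longest reference transcript were related with a rho (Spearman) of -0.48, given without a p because genes are not independent of each other. Between libraries of a group, subunit genes had a median SD of 0.41 on the log2 scale, against 0.71 for all genes tested. Genes averaging 20 FPKM or more, the nearer comparison for such abundant genes, had 0.45.

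**Figure D1:**
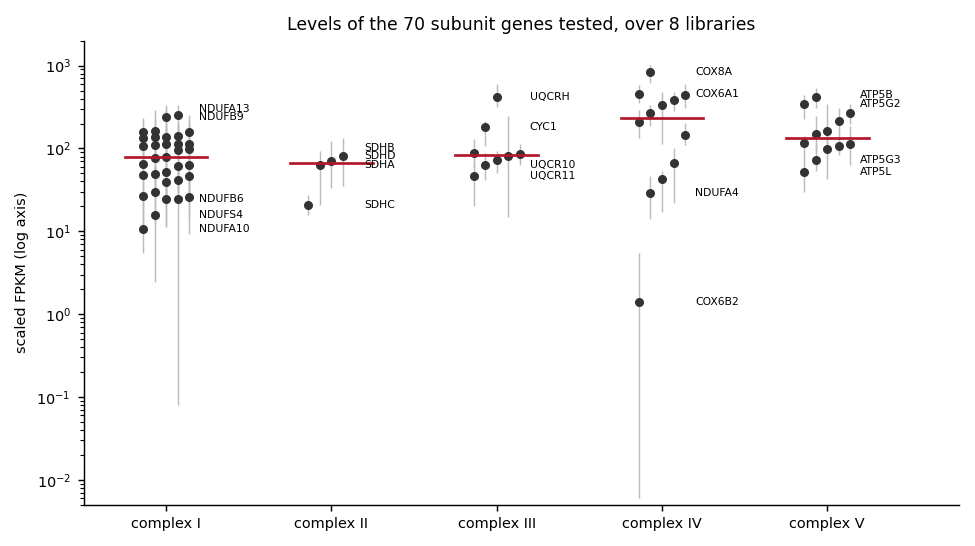
Mean scaled FPKM (log axis) of the 70 subunit genes tested, by complex. Points are means over 8 libraries, grey lines run between the lowest and the highest library, and red bars are the median over genes; the highest genes are COX8A (831 FPKM) in complex IV, ATP5B (424 FPKM) in complex V and UQCRH (422 FPKM) in complex III.

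Induction of each transgene was compared first, then the lines within each induction state, and last the difference between the lines in their response to induction. All 5 comparisons used limma on log2(FPKM + 0.5) over all genes, with Benjamini-Hochberg adjustment over all genes tested. Of the 73 members tested, 0 passed an adjusted p of 0.05 in any comparison. For K700E_induced against K700E_uninduced, 0.00879% of all genes passed; 7 members had an unadjusted p under 0.05, where 4.72% of all genes did. For WT_induced against WT_uninduced, 0.00879% of all genes passed; 8 members were under 0.05 unadjusted, against 4.29% of all genes. For K700E_induced against WT_induced, 0.0264% of all genes passed; 7 members were under 0.05 unadjusted, against 5.23% of all genes. For K700E_uninduced against WT_uninduced, 0% of all genes passed; 9 members were under 0.05 unadjusted, against 4.62% of all genes. For the interaction of line and induction, 0.0176% of all genes passed; 5 members were under 0.05 unadjusted, against 4.25% of all genes.

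The members had no common direction. Their median log2 fold change was -0.03 for K700E induction, beside -0.01 over all genes, and -0.12 for WT induction, beside 0.01 over all genes. It was 0.06 for K700E_induced against WT_induced, beside 0.00 over all genes, and 0.09 for K700E_uninduced against WT_uninduced, beside 0.02 over all genes. For the interaction it was 0.13, beside -0.05 over all genes. Groups that do not overlap are a looser description. For K700E induction both libraries were higher for 11 of the 73 members, where 16.1% of all genes were, and lower for 17, where 17.8% of all genes were. For WT induction they were higher for 11, where 15.1% of all genes were, and lower for 19, where 14% of all genes were. K700E_induced libraries were above WT_induced ones for 17, where 16.3% of all genes were, and below for 7, where 16.6% of all genes were. K700E_uninduced libraries were above WT_uninduced ones for 14, where 16.9% of all genes were, and below for 11, where 15.7% of all genes were.

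The smallest adjusted p of any member by limma was 0.39, for NDUFS6 in K700E_induced against WT_induced, and it ranged from 0.29 to 0.80 over the processing settings tried. The smallest in the other 4 comparisons were 0.98, 1.00, 0.97 and 1.00.

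**Figure D2:**
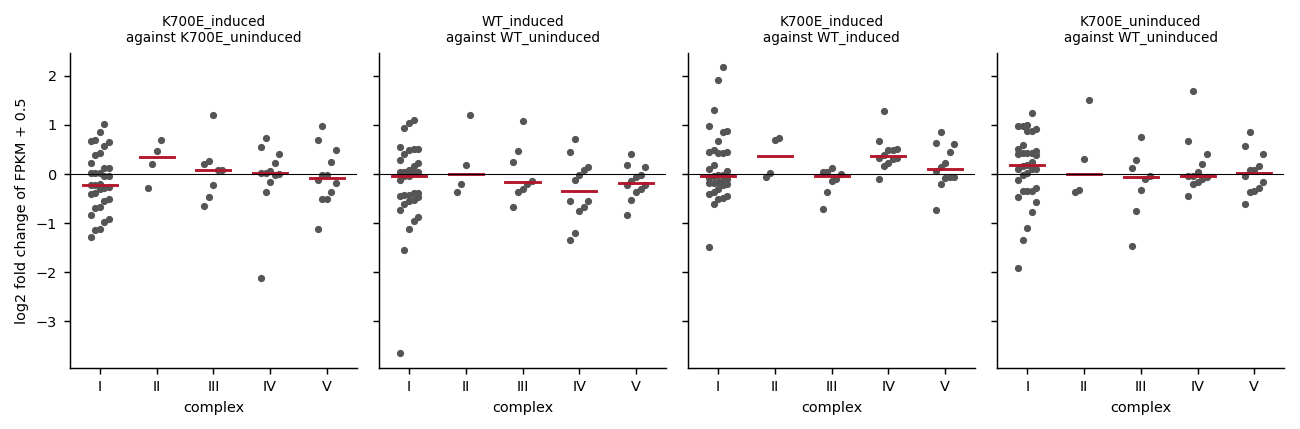
Log2 fold change (FPKM + 0.5) of the 70 subunit genes tested, by complex, in the 4 pairwise comparisons. Points are genes and red bars are medians; in the panel of K700E_induced against WT_induced 11 of 12 complex IV genes lie above 0.

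Complex I gave 34 subunit genes, all tested. Their summed level was 3472 and 2745 FPKM in K700E_induced and 3079 and 3375 FPKM in K700E_uninduced. It was 2749 and 2791 FPKM in WT_induced and 2801 and 3387 FPKM in WT_uninduced, so the K700E groups overlapped and both WT_induced libraries were just below both WT_uninduced ones. NDUFA13 and NDUFB9, both accessory subunits of the membrane arm, were the most abundant, at 253 and 241 FPKM. NDUFS4, an accessory subunit of the matrix arm, and NDUFA10 were the least abundant, at 15.8 and 10.6 FPKM. NDUFS4 was also among the least repeatable members, with 17.8 and 3.80 FPKM in the WT_induced libraries and 2.43 and 61.2 FPKM in the WT_uninduced libraries.

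The 6 core subunits of complex I measured here include those that carry the flavin and iron-sulphur centres, while NDUFS3 holds neither. In K700E_induced against WT_induced all 6 had a positive log2 fold change, with a median of 0.44, and for 2 of them (NDUFS3 and NDUFV1) both K700E_induced libraries were above both WT_induced ones, where 16.3% of all genes were; 0 passed, where 0.0264% of all genes did. NDUFS3, a matrix-arm core subunit, had 57.0 and 68.1 FPKM in K700E_induced, against 30.1 and 20.5 FPKM in WT_induced (log2 fold change 1.31, SE 0.39). Its uninduced levels were 91.99 and 75.4 FPKM in the K700E line and 45.6 and 26.4 FPKM in the WT line (1.25, SE 0.39). NDUFS3 was therefore higher in all 4 K700E-line libraries than in all 4 WT-line libraries, with or without doxycycline. NDUFV1, which binds the flavin that takes electrons from NADH, had 161 and 174 FPKM in K700E_induced and 107 and 63.7 FPKM in K700E_uninduced (1.012, SE 0.37). It had 70.3 and 121 FPKM in WT_induced and 109 and 91.9 FPKM in WT_uninduced, so both K700E_induced libraries were above the other 6.

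NDUFS6, a zinc-binding accessory subunit of the matrix arm, showed the widest gap of any member relative to its spread. It had 109 and 136 FPKM in K700E_induced, against 33.3 and 30.2 FPKM in WT_induced (1.92, SE 0.39, unadjusted p 0.00111 by limma). Uninduced levels were 116 and 136 FPKM in the K700E line and 63.5 and 136 FPKM in the WT line. The low libraries were the 2 WT_induced ones, which gave a log2 fold change of -1.54 (SE 0.39) against WT_uninduced. The difference between the lines in their response to induction was 1.495 (SE 0.55, adjusted p 1.00 by limma).

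Other accessory subunits of complex I stood at the ends of a comparison. NDUFB3 had 15.5 and 11.2 FPKM in K700E_induced, against 19.7 and 54.5 FPKM in K700E_uninduced (-1.28, SE 0.57). It had 35.5 and 40.4 FPKM in WT_induced, against 23.5 and 13.0 FPKM in WT_uninduced (1.09, SE 0.57). The 2 inductions thus pointed in opposite directions for NDUFB3, with a difference of -2.38 (SE 0.80) that did not pass either. NDUFA2 had 22.1 and 51.1 FPKM in K700E_induced, against 73.9 and 73.1 FPKM in K700E_uninduced (-1.12, SE 0.44). NDUFB8 had 129 and 106 FPKM in K700E_induced, against 46.7 and 89.1 FPKM in K700E_uninduced (0.86, SE 0.44), and both induced libraries were above the other 6. NDUFB2 had 25.8 and 49.3 FPKM in K700E_uninduced, against 92.1 and 199 FPKM in WT_uninduced (-1.91, SE 0.60). The antisense gene NDUFB2-AS1 overlaps the start of NDUFB2 and was above 0 only in WT_induced replicate 2 (5.96 FPKM). No strand setting is given in the sources used here, so reads from the overlap cannot be told apart. NDUFA5 had 49.8 and 54.9 FPKM in K700E_uninduced, against 31.7 and 21.3 FPKM in WT_uninduced (0.99, SE 0.37), and its 4 K700E-line libraries were all above its 4 WT-line libraries.

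For several members single libraries set the value. NDUFB6 had 7.11 and 31.8 FPKM in K700E_induced, 33.7 and 11.7 FPKM in K700E_uninduced, 20.4 and 0.0809 FPKM in WT_induced, and 30.6 and 60.5 FPKM in WT_uninduced. It gave -3.65 (SE 1.52) for WT induction and 2.17 (SE 1.52) for K700E_induced against WT_induced. Without WT_induced replicate 2 the second value was -0.41. NDUFA6 had 12.5 and 21.5 FPKM in K700E_uninduced, against 60.8 and 29.4 FPKM in WT_uninduced (-1.34, SE 0.51), but its only model in WT_uninduced replicate 2 was an assembled one, and with reference transcripts alone the value turned to 1.58 (adjusted p 0.98 by limma). NDUFA3 had 224 and 106 FPKM in WT_induced, against 103 and 55.0 FPKM in WT_uninduced (1.03, SE 0.43). NDUFB11 had 111 and 67.4 FPKM in K700E_induced, against 120 and 146 FPKM in WT_induced (-0.61, SE 0.34).

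Complex II has 4 subunits, all nuclear and all tested. The membrane anchors SDHD and SDHC averaged 70.4 and 21.0 FPKM, and the catalytic subunits SDHB, with iron-sulphur centres, and SDHA, with flavin, averaged 80.7 and 63.9 FPKM. SDHA had 70.9 and 68.5 FPKM in K700E_induced and 75.7 and 94.0 FPKM in K700E_uninduced. It had 53.3 and 87.1 FPKM in WT_induced, against 21.1 and 40.9 FPKM in WT_uninduced (1.20, SE 0.41). The WT_uninduced libraries were the 2 lowest of the 8, and K700E_uninduced stood 1.51 above them on the log2 scale (SE 0.41). No other complex II gene had an unadjusted p under 0.05 in these comparisons. The summed level of the complex was 322 and 243 FPKM in K700E_induced, against 327 and 187 FPKM in K700E_uninduced, and 181 and 242 FPKM in WT_induced, against 154 and 234 FPKM in WT_uninduced, with overlap in both inductions.

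Complex III gave 8 subunit genes. Their summed level was 1045 and 848 FPKM in K700E_induced, against 1073 and 852 FPKM in K700E_uninduced. It was 883 and 1324 FPKM in WT_induced, against 1090 and 1202 FPKM in WT_uninduced, with overlap in both inductions. Of these 8, UQCRH, the hinge protein, and CYC1, which is cytochrome c1, were the most abundant, at 422 and 180 FPKM. UQCR10 and UQCR11 were the least abundant of them, at 62.7 and 46.9 FPKM. UQCRB, listed without a symbol and so outside the 8, averaged 18.9 FPKM. UQCR11 had 69.3 and 38.3 FPKM in K700E_induced, against 24.3 and 20.01 FPKM in K700E_uninduced (1.21, SE 0.38). It had 53.5 and 46.2 FPKM in WT_induced and 66.8 and 57.1 FPKM in WT_uninduced. The 2 K700E_uninduced libraries were thus the low ones, and against WT_uninduced they gave -1.47 (SE 0.38). UQCRQ, a small subunit bound to cytochrome b, had 57.9 and 58.9 FPKM in K700E_induced and 46.6 and 50.1 FPKM in K700E_uninduced, but 36.9 and 246 FPKM in WT_induced and 130 and 15 FPKM in WT_uninduced. Most of the 2 high values came from assembled models of 364 nt and 305 nt, which held 80.6% and 70.7% of the gene in those libraries. Its log2 fold change in K700E_induced against WT_induced was -0.70, and 0.45 with reference transcripts alone or 0.66 without WT_induced replicate 2. For WT induction it was 1.09 (SE 1.06), and -0.27 without WT_induced replicate 2 or -0.45 without WT_uninduced replicate 2.

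UQCRHL, a near copy of UQCRH elsewhere on chromosome 1, had 37.4 FPKM in K700E_uninduced replicate 2 and between 0.379 and 1.34 FPKM in the other 7 libraries. UQCRH had 314 FPKM in that library and 315 FPKM in WT_induced replicate 1, where UQCRHL had 1.33 FPKM. How reads were shared between the near-identical genes is not given, so the split between them is uncertain.

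In complex IV both WT_induced libraries stood below the other 6, and 6 isoforms were listed at 0 throughout. Its 18 subunit genes include 6 isoforms or paralogues known from particular tissues that had no RNA listed: COX4I2, COX6A2, COX7A1, COX7B2, COX8C and NDUFA4L2 were at 0 in all 8 libraries. Their ubiquitous partners averaged 266 (COX4I1), 460 (COX6A1), 66.4 (COX7A2), 206 (COX7B), 831 (COX8A) and 28.8 (NDUFA4) FPKM. COX6B2, known from testis, averaged 1.41 FPKM beside 386 FPKM for COX6B1. It had 0.168 and 0.744 FPKM in K700E_induced, against 5.53 and 2.11 FPKM in K700E_uninduced (-2.12, SE 1.218). The K700E_uninduced values stood against 2.08 and 0.0849 FPKM in WT_uninduced (1.69, SE 1.218).

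The summed level of complex IV genes was 3553 and 3556 FPKM in K700E_induced and 3445 and 3328 FPKM in K700E_uninduced. It was 2794 and 2417 FPKM in WT_induced and 3204 and 3455 FPKM in WT_uninduced. Both WT_induced libraries were below all the other 6, at 2606 ± 266 FPKM against 3330 ± 178 FPKM in WT_uninduced (SD, n = 2 each). The gap did not rest on COX8A, the most abundant gene: without it the sums were 2164 and 1798 FPKM in WT_induced, and between 2330 and 2768 FPKM in the other 6 libraries. In bulk RNA, a lower level in all cells and fewer cells at the usual level cannot be told apart.

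**Figure D3:**
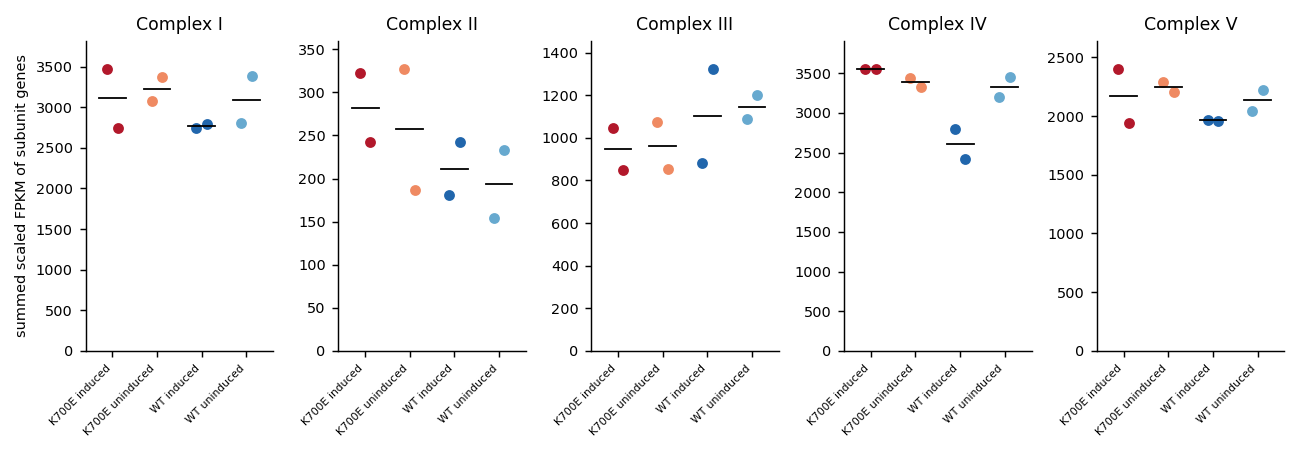
Summed scaled FPKM of the subunit genes of each complex. Points are libraries and bars are means of the 2 libraries of a group; in complex IV the WT_induced libraries (2794 and 2417 FPKM) are below the other 6 (3204 to 3556 FPKM).

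COX4I1, COX5B, COX7C and COX8A were each lower in both WT_induced libraries than in all of the other 6. COX8A had 785 and 1014 FPKM in K700E_induced, 978 and 792 FPKM in K700E_uninduced, 630 and 619 FPKM in WT_induced, and 874 and 953 FPKM in WT_uninduced. COX5B, which binds zinc on the matrix side, had 554 and 385 FPKM in K700E_induced, 486 and 421 FPKM in K700E_uninduced, 351 and 310 FPKM in WT_induced, and 450 and 605 FPKM in WT_uninduced. COX7C, a single-span membrane subunit, showed the widest gap, with 428 and 355 FPKM in K700E_induced, against 221 and 114 FPKM in WT_induced (1.29, SE 0.36). WT_uninduced had 379 and 424 FPKM of COX7C, for a WT induction value of -1.34 (SE 0.36). COX4I1, the subunit through which ATP inhibits the oxidase, had 227 and 186 FPKM in WT_induced, against 266 and 338 FPKM in WT_uninduced (-0.55, SE 0.27).

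Complex IV was not uniform in this. COX7A2 had 57.9 and 21.7 FPKM in WT_induced, against 102 and 66.4 FPKM in WT_uninduced (-1.20, SE 0.64), yet COX7B had 233 and 270 FPKM in WT_induced, against 135 and 174 FPKM in WT_uninduced. COX5A, a subunit on the matrix side, was instead high in K700E_induced, with 206 and 191 FPKM, against 129 and 111 FPKM in K700E_uninduced (0.73, SE 0.24). Its other 4 libraries had 150 and 134 FPKM in WT_induced and 123 and 133 FPKM in WT_uninduced. Among the 12 complex IV genes tested, groups did not overlap for 6 lower and 2 higher genes in WT induction, where 14% of all genes were lower and 15.1% higher in this way. In K700E_induced against WT_induced they did not overlap for 7 higher genes and 0 lower ones, where 16.3% and 16.6% of all genes did. These 2 comparisons share the WT_induced libraries. K700E induction gave 1 higher and 1 lower gene of 12, where 16.1% and 17.8% of all genes did.

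Over all complexes, 6 of the 70 subunit genes (8.57%) were lower in both WT_induced libraries than in the other 6, where 2.79% of all genes were. The other 2 were NDUFS6 and ATP5L; 1 gene, NDUFV3, was higher, where 3.34% of all genes were. This arrangement of libraries was chosen after the values were seen and carries no test. The summed level of the 10 K562 and erythroid markers was 7008 and 10235 FPKM in K700E_induced, 8654 and 13532 FPKM in K700E_uninduced, 6285 and 6397 FPKM in WT_induced, and 6608 and 6832 FPKM in WT_uninduced. Most of it came from 4 globin genes. The other 6 markers summed to 643 and 675 FPKM in K700E_induced, 558 and 564 FPKM in K700E_uninduced, 638 and 587 FPKM in WT_induced, and 554 and 699 FPKM in WT_uninduced, with overlap. Of the 10 markers, 0 were lower in both WT_induced libraries than in the other 6, and 2 (BCR and ABL1) were higher. The part of the globins in the complex IV result was not tested.

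**Figure D4:**
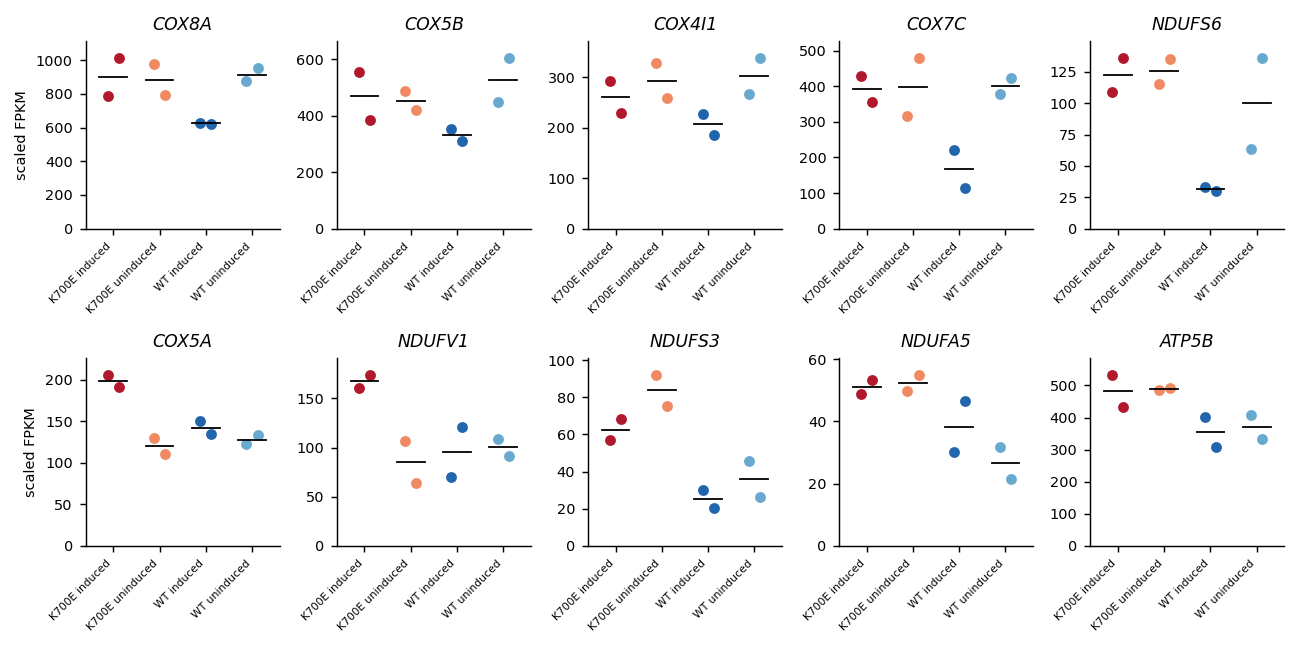
Scaled FPKM of 10 subunit genes in each library. Points are libraries and bars are means of the 2 libraries of a group; COX8A, COX5B, COX4I1, COX7C and NDUFS6 are lowest in WT_induced, COX5A and NDUFV1 highest in K700E_induced, and NDUFS3, NDUFA5 and ATP5B higher in the K700E line than in the WT line.

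Complex V gave 12 subunit genes by the rule. Their summed level was 2401 and 1942 FPKM in K700E_induced and 2288 and 2208 FPKM in K700E_uninduced. It was 1967 and 1959 FPKM in WT_induced and 2046 and 2222 FPKM in WT_uninduced. For these 12 genes both WT_induced libraries were thus below both WT_uninduced ones, while the K700E groups overlapped. The sum leaves out ATP5F1A, ATP5F1E, ATP5MF and ATP5MK, which were listed without a symbol. ATP5MF, which averaged 448 FPKM, had 450 and 584 FPKM in WT_induced, against 356 and 318 FPKM in WT_uninduced. ATP5F1A was also higher in both WT_induced libraries, while ATP5F1E and ATP5MK overlapped. A sum with these subunits was not made. Among the 12, groups in WT induction did not overlap for 4 lower and 0 higher genes, where 14% and 15.1% of all genes did. ATP5B, the catalytic beta subunit, was the most abundant of the 12. It had 533 and 432 FPKM in K700E_induced and 487 and 492 FPKM in K700E_uninduced. The WT line had 402 and 307 FPKM of ATP5B when induced and 407 and 332 FPKM when uninduced. All 4 K700E-line libraries were above all 4 WT-line libraries, by 0.45 (SE 0.25) between the induced and 0.41 (SE 0.25) between the uninduced groups on the log2 scale. ATP5D, the delta subunit of the central stalk, had 250 and 177 FPKM in K700E_induced, against 120 and 94.4 FPKM in K700E_uninduced (0.98, SE 0.37). ATP5I, a small membrane subunit of the dimer interface, had 151 and 193 FPKM in K700E_induced, against 262 and 307 FPKM in WT_induced (-0.73, SE 0.41). ATP5L, its neighbour subunit g, was the least abundant of the 12. It had 30.2 and 36.7 FPKM in WT_induced, against 53.9 and 66.9 FPKM in WT_uninduced (-0.84, SE 0.39).

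The proton-driven c ring is built from 1 protein encoded by 3 genes, ATP5G1, ATP5G2 and ATP5G3, whose import sequences differ while the mature protein is the same. The last 75 codons before the stop codon, which encode that protein, are shown because the genes' shares of the ring mRNA are the result below and reads from this stretch are told apart only by these bases. They come from GENCODE release transcripts on GRCh38 (ATP5G2 on chromosome 12, ATP5G1 on chromosome 17, ATP5G3 on chromosome 2), and capitals mark bases that differ from ATP5G2.
ATP5G2: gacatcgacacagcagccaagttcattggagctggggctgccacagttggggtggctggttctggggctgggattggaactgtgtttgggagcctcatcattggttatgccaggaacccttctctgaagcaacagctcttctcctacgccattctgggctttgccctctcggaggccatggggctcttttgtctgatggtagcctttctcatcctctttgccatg
ATP5G1: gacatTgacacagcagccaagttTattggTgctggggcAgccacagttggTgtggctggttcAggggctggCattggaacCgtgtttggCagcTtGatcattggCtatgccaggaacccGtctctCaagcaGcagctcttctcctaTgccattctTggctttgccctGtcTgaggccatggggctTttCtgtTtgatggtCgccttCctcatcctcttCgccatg
ATP5G3: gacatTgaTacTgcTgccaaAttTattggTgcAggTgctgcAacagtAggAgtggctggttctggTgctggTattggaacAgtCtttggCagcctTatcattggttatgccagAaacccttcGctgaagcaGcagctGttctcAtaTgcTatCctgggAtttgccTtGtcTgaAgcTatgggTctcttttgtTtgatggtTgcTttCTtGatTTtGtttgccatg
Over these 225 bases ATP5G1 was 88.9% identical to ATP5G2, with 25 differences, and ATP5G3 was 81.3% identical, with 42.

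ATP5G2 was the main source of ring mRNA in every library, at 55.2% and 74.2% of the 3 genes' summed FPKM in K700E_induced and 59.4% and 59.4% in K700E_uninduced. Its share was 65.2% and 71.7% in WT_induced and 69.0% and 71.0% in WT_uninduced. ATP5G1 had 108 and 64.8 FPKM in K700E_induced, against 186 and 177 FPKM in K700E_uninduced (-1.11, SE 0.35). The WT line had 101 and 63.4 FPKM of ATP5G1 when induced and 103 and 95.8 FPKM when uninduced, so the K700E_uninduced libraries were the 2 highest. The summed stromal and epithelial markers, mostly KRT8 and KRT18, were also highest there, at 611 and 573 FPKM in K700E_induced, 1148 and 964 FPKM in K700E_uninduced, 548 and 425 FPKM in WT_induced, and 665 and 452 FPKM in WT_uninduced; their part here and for UQCR11 was not tested. ATP5G3, the least abundant, ran from 53.8 to 114 FPKM over the 8 libraries. The summed ring mRNA was 411 and 467 FPKM in K700E_induced, against 738 and 620 FPKM in K700E_uninduced, and 520 and 432 FPKM in WT_induced, against 507 and 576 FPKM in WT_uninduced.

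**Figure D5:**
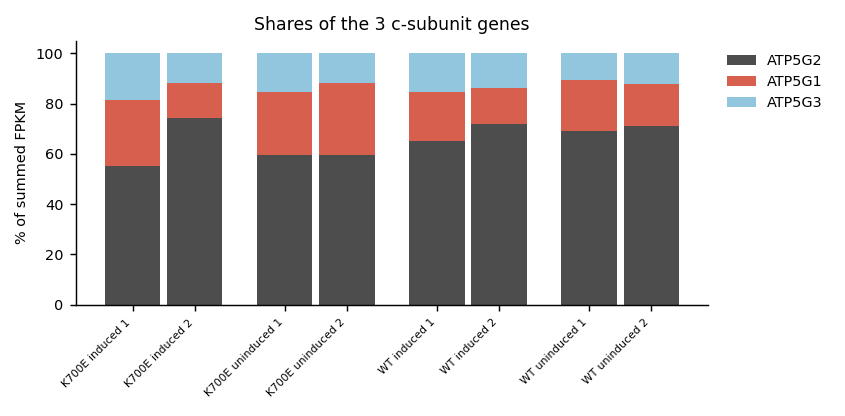
Share (%) of the 3 c-subunit genes in their summed FPKM, by library. ATP5G2 holds 55.2% to 74.2% and ATP5G1 13.9% to 28.6% of the sum.

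Levels by line were looked at across both induction states. NDUFS3, NDUFA5, COX6A1 and ATP5B were higher in all 4 K700E-line libraries than in all 4 WT-line libraries, which is 4 of the 70 subunit genes (5.71%), where 1.79% of all genes were; 0 were lower, where 1.88% of all genes were. COX6A1, the ubiquitous isoform of a complex IV subunit, had 556 and 483 FPKM in K700E_induced, 591 and 461 FPKM in K700E_uninduced, 442 and 350 FPKM in WT_induced, and 425 and 369 FPKM in WT_uninduced. The erythroid marker sum given above was also higher in all 4 K700E-line libraries, through the summed globin genes, while 0 of the 10 markers singly separated the lines in either direction; the part of the globins in this was not tested. NDUFV1, NDUFB8 and COX5A were higher in both K700E_induced libraries than in the other 6, which is 4.29% of the subunit genes, where 3.75% of all genes were. The summed myeloid markers were 10.7 and 12.1 FPKM in K700E_induced and between 34.7 and 63.5 FPKM in the other 6 libraries, with LYZ and CD68 both lowest in K700E_induced; their part was not tested. COX7A2L, which tethers complexes III and IV into supercomplexes, was lower, with 44.96 and 40.9 FPKM in K700E_induced, against 82.1 and 67.6 FPKM in WT_induced (-0.79, SE 0.30), where 3.6% of all genes were lower in both K700E_induced libraries. K700E_uninduced had 68.4 and 53.3 FPKM of COX7A2L, and WT_uninduced 71.9 and 72.2 FPKM. Like the one above, these arrangements were chosen after the values were seen.

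Of the remaining members that encode no subunit, ATP5SL, an assembly factor of complex I now called DMAC2, had 35.8 and 26.1 FPKM in K700E_induced, against 20.02 and 49.4 FPKM in K700E_uninduced, and 41.2 and 6.45 FPKM in WT_induced, against 33.4 and 18.7 FPKM in WT_uninduced. The groups overlapped in both inductions. ATP5L2 and UQCRBP1 had means under 0.1 FPKM in each group, and ATP5EP2 was listed at 0 throughout.

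Because SF3B1 acts in splicing, the share of each transcript within its gene was compared as well. For 72 transcripts of 33 member genes with a mean share of 5% to 95%, 0 passed an adjusted p of 0.05 by limma in any of the 5 comparisons, where 0% of the 24730 transcripts tested did. Unadjusted p under 0.05 was reached by 2 for K700E induction, 4 for WT induction, 3 for K700E_induced against WT_induced, 4 for K700E_uninduced against WT_uninduced and 2 for the interaction, where 3.72%, 4%, 4.04%, 3.82% and 3.76% of all transcripts did. Shares of NDUFC1, a complex I subunit with 7 reference transcripts, differed widely between libraries: its form of 725 nt held 100% and 48.0% of the gene in K700E_induced, and 0% and 0% in K700E_uninduced. That form held 88.2% and 0% in WT_induced, and 100% and 92.5% in WT_uninduced, so the 2 WT_induced libraries lay near opposite ends of the range. The ATP5I form of 365 nt held 100% in both WT_induced libraries, against 50.4% and 64.4% in WT_uninduced, and 100% in all 4 K700E-line libraries. The UQCRC1 form of 1617 nt held 61.1% and 52.8% in K700E_uninduced, against 100% in both WT_uninduced libraries. The ATP5SL form of 1563 nt held 49.1% and 77.2% in K700E_induced, against 0% and 12.5% in K700E_uninduced and 0% in both WT_induced libraries. Over the members, 13 transcripts of 6 genes were at 100% of their gene in 1 or more libraries and at 0% in 1 or more others.

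Splice sites outside the reference were rare in these genes. The lists held 16 introns with no reference counterpart, in 16 member genes, and 13 of them were seen in 1 library. K700E_induced libraries had 1 and 0 of them, against 7 and 3 in K700E_uninduced, and WT_induced had 2 and 2, against 2 and 3 in WT_uninduced. The number of assembled spliced models joined to any gene also differed by library, with 2333 and 2948 in K700E_induced, 3118 and 2524 in K700E_uninduced, 3106 and 2737 in WT_induced, and 2740 and 2183 in WT_uninduced; its part in these small counts was not tested. The 3 seen in 2 or more libraries were in NDUFV3, SDHA and UQCRH, and each was absent from both K700E_induced libraries. Pairs of acceptors on the same donor within 100 nt were found in 5 member genes, ATP5F1, COX4I1, COX6C, NDUFA2 and NDUFC1, 1 to 47 nt apart. In NDUFA2 and NDUFC1 both sites of the pair were reference sites, so their shares compare reference forms. In ATP5F1, COX4I1 and COX6C only the upstream site was in the reference. In NDUFC1, with sites 4 nt apart, the upstream site held 100% in both K700E_induced libraries and 0% in K700E_uninduced replicate 1, while K700E_uninduced replicate 2 used neither; it held 100% and 0% in WT_induced and 100% in both WT_uninduced libraries. The upstream site of ATP5F1 held 23.5% in WT_uninduced replicate 1 and 100% in the other 7 libraries. That of NDUFA2 held 25.6% in K700E_uninduced replicate 1 and 0% elsewhere, and that of COX6C held 85.4% in K700E_uninduced replicate 1 and 100% elsewhere. In COX4I1 the pair was 4 nt apart and the upstream site held 74.4% of the FPKM on the pair in K700E_uninduced replicate 2, but 100% in the other 7 libraries.

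Genes that serve the chain were taken from lists of known assembly factors, electron carriers and regulators. All 53 assembly factors were tested and 0 passed in any comparison by limma; 2 had an unadjusted p under 0.05 for K700E induction, where 4.72% of all genes did, and 4 for WT induction, where 4.29% did. Between the lines 3 did in each induction state, where 5.23% (induced) and 4.62% (uninduced) of all genes did, and 1 did in the interaction, where 4.25% did. Their median log2 fold change was 0.12 for K700E induction and 0.02 for WT induction. SDHAF2, which inserts flavin into SDHA, had 26.2 and 35.6 FPKM in K700E_induced, against 6.52 and 6.55 FPKM in K700E_uninduced (2.14, SE 0.47). In the WT line it had 14.8 and 18.1 FPKM when induced and 8.02 and 8.94 FPKM when uninduced, so induced libraries were above uninduced ones in both lines. MNF1, a complex III assembly factor also called UQCC2, had 105 and 41.7 FPKM in K700E_induced, against 22.9 and 6.91 FPKM in K700E_uninduced (2.34, SE 0.65) and 10.9 to 19.4 FPKM in the WT line. Among the factors above 0 in all 8 libraries, the lowest values for K700E induction were those of COX15 (-1.65, SE 0.95), of haem a synthesis, and NDUFAF7 (-1.04, SE 1.44). Within the same factors, the highest for WT induction were NDUFAF6 (2.03, SE 1.30) and COA6 (2.02, SE 0.59), and the lowest CMC1 (-1.94, SE 1.38) and ATPAF2 (-3.40, SE 1.15). Among 7 electron carriers and 11 regulators tested, 0 passed in any comparison, and 0 of either list was under 0.05 unadjusted in either induction.

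The subunit genes were also compared by the letters of their promoters, as a feature the choice by symbol did not use. RefSeq promoters on GRCh38.p14, running from 250 bases before to 50 bases after the start site, matched 61 of the 70 tested subunit genes. Motifs were searched as exact letters on both strands. The NRF1 motif was present in 15 of the 61 (24.6%), against 12.7% of the promoters of 8374 genes tested here and 5.78% of all 35116 promoters. The ETS motif CCGGAAG was present in 19 (31.15%), against 21.0% of tested genes, and the YY1 motif AAGATGGC in 11 (18.0%), against 6.08%. The SP1 motif GGGCGG was less frequent, in 36 (59.0%), against 71.8% of tested genes. The motif CCAAT was in 19 (31.15%), against 37.6%, and TATAAA in 6 (9.84%), against 4.88%. NRF1 is a known activator of respiratory genes, and windows around matches before the start site are given, with the motif in capitals, for genes of complexes I, II, III and V.
NDUFB4 (complex I), chr3:120596157-120596206, plus strand: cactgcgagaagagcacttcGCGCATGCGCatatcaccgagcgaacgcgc
NDUFA12 (complex I), chr12:95003784-95003833, minus strand: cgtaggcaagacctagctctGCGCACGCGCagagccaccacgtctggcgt
SDHA (complex II), chr5:218134-218183, plus strand: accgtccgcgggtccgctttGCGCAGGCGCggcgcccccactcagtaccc
SDHD (complex II), chr11:112086743-112086792, plus strand: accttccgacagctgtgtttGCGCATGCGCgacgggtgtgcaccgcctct
UQCRC1 (complex III), chr3:48609664-48609713, minus strand: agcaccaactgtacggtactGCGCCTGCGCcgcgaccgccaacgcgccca
ATP5I (complex V), chr4:674466-674515, minus strand: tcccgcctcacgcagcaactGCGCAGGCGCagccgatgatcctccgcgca
Of the 6 genes lowest in WT_induced, 0 had the NRF1 motif before the start site. Anywhere in the 61 matched subunit promoters, 24.6% had the NRF1 motif and 31.15% the ETS motif. The 6 genes were chosen by their levels and are too few to set against those shares. COX5B and COX8A had an ETS motif before the start site, shown in capitals on the plus strand, beside SP1 motifs. COX8A also had CCAAT matches there. NDUFS6, COX4I1 and COX7C had an SP1 motif only, and ATP5L had none of the motifs searched.
COX5B, chr2:97646015-97646041, plus strand: aagcccgcccCCGGAAGtccctcctgt
COX8A, chr11:63974592-63974618, plus strand: agctccagaaCTTCCGGccagcgcagc
A match of letters is a description and not a binding site.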

How the data were processed

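RNA of K562 cells from 8 libraries in 4 groups of 2 was analysed, after depletion of ribosomal RNA by an RNase H technique per the labels' protocols. The deposited transcript lists hold FPKM values for each transcript that the authors computed on hg19; TopHat, Cufflinks and CASAVA are named in the submitters' processing notes, with no versions. Library totals are not given, so coverage per FPKM stands for depth (3.29 to 4.77), and the lists' own intervals had a median half-width of 6.16% to 6.94% of the value. FPKM was summed per gene over 43497 reference transcripts and over assembled spliced models of 300 nt or more that share introns with them; unspliced models were joined at 90% reciprocal cover. Libraries were scaled by median ratios over 7589 genes at 1 FPKM or more in every library. Tests used limma 3.58.1 in R 4.3.3 with a trend, on log2(FPKM + 0.5) for genes with a mean of 1 FPKM or more, all 8 libraries in 1 fit and Benjamini-Hochberg adjustment; fold changes on this scale understate the change of low genes. For transcripts, the log2 ratio of 1 form to all other forms of the gene was tested. Only the gene-level limma fit was run on simulated log2 values with known shifts. The naming and summing of transcripts, the scaling and the transcript shares were not simulated.

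Named genes were the 4 subunits with the highest and the 4 with the lowest fold change in each comparison (only genes above 0 in every library), the 2 most and 2 least abundant of each complex, the paralogue sets, the members that encode no subunit, the 3 transcripts with the smallest p per comparison (some are given as counts only), and the 2 highest and 2 lowest assembly factors per induction, again only among those above 0 in every library. The members and lists were chosen with earlier results of these data known. Genes named because a group or a line stood apart from all other libraries, the complex IV sum without COX8A and the promoter windows were chosen after the values were seen. NDUFA4 was placed in complex IV, where its protein is found. Symbols in the files were used first and a table of accessions filled gaps; genes named only in that way are outside the rule. Alternatives were other pseudocounts, filters and scalings, reference transcripts alone, the compared groups alone, a replicate block and leaving out each library.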

Additional observations from a re-analysis of the deposited data

How the results depend on the processing

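The count of members past the threshold was 0 under every alternative run, for genes and for transcript shares, including the fit with the replicate block. Over all genes tested, same-numbered libraries of 2 groups deviated together with correlations of -0.03 to 0.08 only. Whether same-numbered libraries shared a culture or a batch cannot be told from this. Under the block the member medians were -0.03, -0.12, 0.06, 0.09 and 0.13 for the 5 comparisons. With reference transcripts alone the member median for WT induction was 0.025, UQCRQ in K700E_induced against WT_induced was 0.45, and NDUFA6 in K700E_uninduced against WT_uninduced was 1.58. Without WT_induced replicate 2, UQCRQ was -0.27 for WT induction and 0.66 in K700E_induced against WT_induced, and NDUFB6 in K700E_induced against WT_induced was -0.41. Without WT_uninduced replicate 2, UQCRQ was -0.45 for WT induction. Leaving out each library in turn moved the member median between -0.12 and 0.089 for K700E induction, -0.16 and -0.11 for WT induction, 0.0067 and 0.21 for K700E_induced against WT_induced, -0.043 and 0.17 for K700E_uninduced against WT_uninduced, and -0.077 and 0.17 for the interaction. Over the same omissions UQCRQ reached 2.63 for WT induction and -2.06 in K700E_induced against WT_induced, and NDUFB6 reached 4.75 in K700E_induced against WT_induced. The cause was not tested. Counting each fold change of a named subunit once per alternative, the other 663 values kept their sign. Of these values, 48 differed by over 1.5 times from the main one, 45 of them when 1 library was left out. For K700E induction NDUFB3 ran from -2.01 without K700E_uninduced replicate 1 to -0.56 without replicate 2, NDUFA2 was -0.52 without K700E_induced replicate 1 and -1.71 without replicate 2, and NDUFB8 was 0.39 without K700E_uninduced replicate 1 and 1.32 without replicate 2. NDUFV1 was 0.64 without K700E_uninduced replicate 2, and UQCR11 was 0.78 without K700E_induced replicate 1. For WT induction, leaving out WT_induced replicate 1 gave -1.90 for COX7A2, -6.23 for NDUFB6 and 0.49 for NDUFA3, and leaving out replicate 2 gave -0.50, -1.06 and 1.57, with -0.86 for COX7C. COX7C in K700E_induced against WT_induced was then 0.82. Leaving out WT_uninduced replicate 2 gave -0.99 for NDUFS6, 0.68 for NDUFB3 and 0.58 for NDUFA3, with 0.95 for the NDUFS6 interaction, and leaving out replicate 1 gave 0.73 for SDHA. SDHA was 0.77 with reference transcripts alone. Between induced groups NDUFB11 was -0.97 without K700E_induced replicate 1 and -0.25 without replicate 2, and NDUFB6 was 1.13 without replicate 2. Between uninduced groups COX6B2 was 2.76 without WT_uninduced replicate 1, 0.62 without replicate 2 and 1.08 without K700E_uninduced replicate 1, and NDUFA6 was -0.82 without WT_uninduced replicate 1. The mean complex IV sum in WT_induced was 2628 FPKM without scaling and 2579 FPKM with reference transcripts alone, against 3352 and 3181 FPKM in WT_uninduced. Coverage per FPKM was lowest in WT_induced replicate 2 (3.29), the library in which NDUFB6 was listed at 0.0809 FPKM.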

Other observations

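The files give 10 further genes of the family by accession without a symbol, among them UQCRB of complex III and ATP5F1A, the alpha subunit that forms the catalytic head of ATP synthase with ATP5B. Of these, 9 were tested and 0 passed in any of the 5 comparisons by limma. ATP5F1A had 135 and 86.1 FPKM in K700E_induced, 142 and 112 FPKM in K700E_uninduced, 122 and 148 FPKM in WT_induced, and 93.6 and 115 FPKM in WT_uninduced. Its groups overlapped between the lines, whereas those of ATP5B did not, and its mean of 119 FPKM stood beside 424 FPKM for ATP5B. UQCRB had 53.6 FPKM in WT_uninduced replicate 1 and between 8.54 and 24.4 FPKM in the other 7 libraries.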
